A study of Mus musculus with 3 samples.

Results

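The subject is the RNA of induced regulatory T cells (iTreg) set against the RNA of naive CD4 T cells on the same Agilent 2-colour mouse array. It is the array titled iTreg, 1 of 3 arrays in the series. The iTreg RNA carried Cy5 and the naive RNA carried Cy3. Splenic CD4 T cells came from C57BL/6 mice aged 6 to 8 weeks, and naive cells were enriched from them with magnetic beads. The iTreg culture was naive cells stimulated for 3 days with plate-bound antibody to CD3e and soluble antibody to CD28 (10 µg/ml each), with IL-2 at 0.4 ng/ml, human TGF-beta 1 at 5 ng/ml, an antibody to interferon gamma at 5 µg/ml and an antibody to IL-4 at 5 µg/ml. The naive group was not cultured. A ratio of iTreg over naive therefore holds activation, 3 days of culture and the cytokine medium together, and these cannot be told apart on this array. The labels give 1 biological replicate, no dye swap, and no count of the mice behind it.

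The other arrays of the series held Th2 RNA (IL-2 at 1 ng/ml, IL-4 at 5 ng/ml and antibody to interferon gamma at 2 µg/ml) and Th9 RNA (IL-2 at 0.2 ng/ml, IL-4 at 1 ng/ml, TGF-beta 1 at 2 ng/ml and antibody to interferon gamma at 5 µg/ml), each against naive RNA in Cy3. Their ratios are given beside those of iTreg for single genes. The naive RNA may be shared by all 3 arrays, so agreement between arrays is not read as support.

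Regulatory T cells restrain other immune cells. Foxp3, a forkhead transcription factor, is needed for their identity and is encoded on the X chromosome. Naive CD4 T cells can be made to express it by stimulation through the T cell receptor together with TGF-beta, which signals through a receptor kinase pair to SMAD proteins, and IL-2, which signals through STAT5. Regulatory T cells are known for a high-affinity IL-2 receptor (CD25, from Il2ra), for the inhibitory receptor CTLA-4, and for the surface enzyme CD73 (from Nt5e), which makes adenosine from AMP outside the cell.

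Of 19751 named genes on the array, 11110 were measured, meaning that the probe used for the gene was well above background in both channels. A further 545 genes were above background in the iTreg channel alone and 897 in the naive channel alone, and 7196 were above background in neither. In the 545 and 897 the fainter channel gives only a bound, written as "at least". The bound sets the bright channel against the faintest signal that was well above background in the other channel, or against the gene's own signal there if that was higher. Intensities below are background-corrected and loess-normalised, and can be compared between the iTreg and naive channels of a gene but not between genes. The sign ± marks the scanner software's error of the log2 ratio, which covers error within this array (median 0.22 over measured genes) and no variation between mice or cultures. Replicated probes had a median SD of 0.05 in log2 ratio over up to 10 spots, and the naive channel had a median SD of 0.05 over the 3 arrays. No spot was saturated.

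At least 2-fold differences were found in 1135 measured genes that were higher in iTreg (10.2%) and 904 that were lower (8.14%). The median log2 ratio of all measured genes was -0.02 and the SD was 0.88. Genes at least 4-fold apart numbered 316 higher and 126 lower, and at least 16-fold apart 27 higher and 5 lower. In 796 of the 1135 and 516 of the 904 the ratio passed 2-fold by more than its scanner error. The split depends on the scaling. With median centring in place of loess the median of all genes lay at -0.18, and 908 genes were higher and 1328 lower, so that 40.6% of the genes past 2-fold were higher, against 55.7% with loess. No gene past 2-fold with loess had the opposite sign with median centring or with the other 6 processing alternatives. Counts of gene lists below are read against 10.2% higher and 8.14% lower, and describe these 2 RNA samples. The lists were drawn up from known gene functions, but were chosen with earlier results of these data known. Their shares are therefore not independent of the data.

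**Figure D1:**
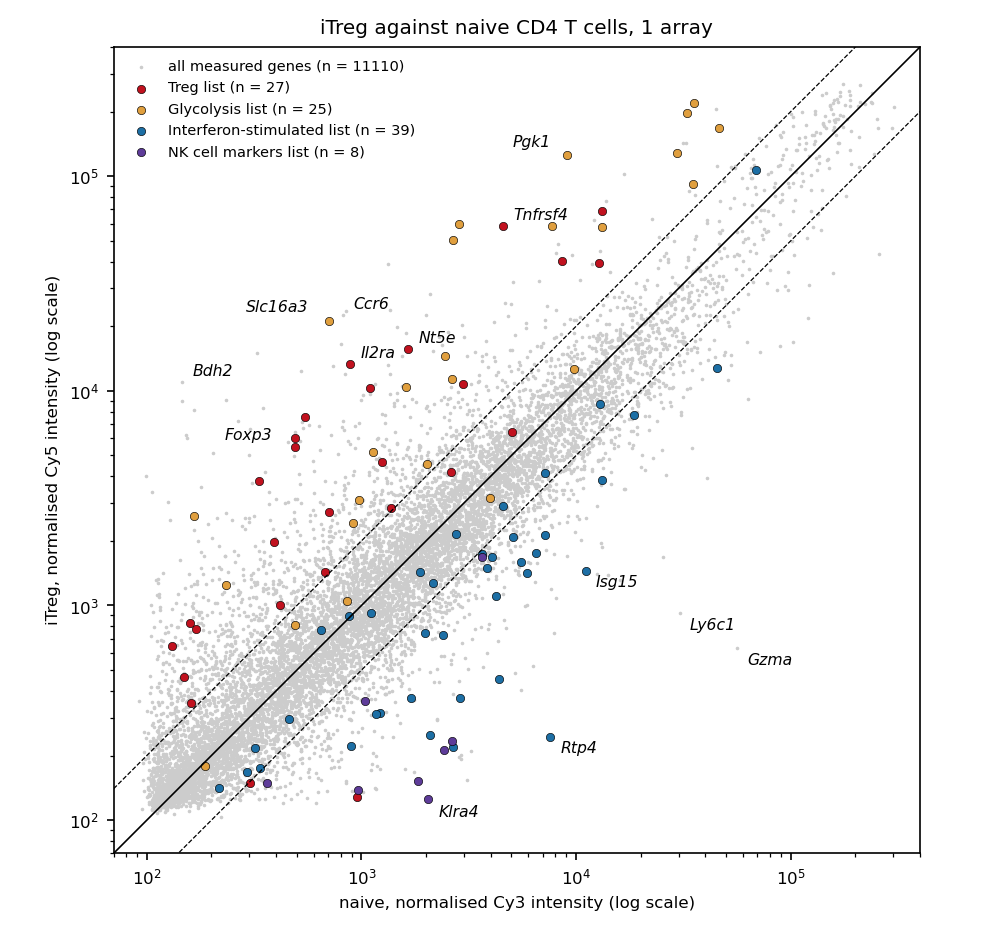
Normalised intensity of each measured gene in iTreg (vertical axis, Cy5, log scale) and in naive cells (horizontal axis, Cy3, log scale). The solid line marks equal intensity and the dashed lines a 2-fold difference. Treg list genes and glycolysis genes lie mostly above the upper dashed line, NK cell markers lie below the lower one, and 24 of 39 interferon-stimulated genes do.

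The genes that define regulatory T cells were higher in the iTreg culture. Foxp3 had an intensity of 5500 in iTreg and 490.4 in naive cells, a log2 ratio of 3.49 ± 0.40 (11.2-fold), which ranked 58 among the 11110 measured genes. Il2ra stood at 13360 in iTreg and 888 in naive cells (3.91 ± 0.44, 15.1-fold, rank 29). Nt5e stood at 15640 in iTreg and 1650 in naive cells (3.25 ± 0.37, 9.48-fold, rank 69). All 3 markers of the labelled cell type thus exceeded 2-fold by far more than their scanner error, and their ratios stayed between 3.13 and 4.17 over all processing alternatives. In Th2 and in Th9 Foxp3 stood at -0.68 and 1.28, Nt5e at -1.22 and 2.50, and Il2ra at 2.33 and 2.56.

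Of the 34 genes of the Treg list on the array, 27 were measured, 23 were at least 2-fold higher in iTreg and 2 were lower. The median log2 ratio was 2.21, against -0.02 for all measured genes, and 1.95 when genes seen in a single channel were entered at their bound. In 20 of the 23 the scanner error did not reach the 2-fold line. The same list had a median of 1.88 in Th2 and 2.34 in Th9.

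Transcription factors of the list ranged widely. Ikzf4, which encodes the Ikaros family factor Eos, had 10360 in iTreg and 1099 in naive cells by the probe used (3.24 ± 0.38), but its other probes gave between 0.30 and 2.80. Ikzf2, which encodes the related factor Helios, was nearer the line, with 1435 in iTreg and 679.3 in naive cells (1.08 ± 0.23), beside -1.35 in Th2 and -0.37 in Th9. Plagl1, a zinc finger gene, stood at 2.30 ± 0.37 (its other probes between -0.12 and 2.09). Prdm1, which encodes Blimp-1, a repressor active in effector regulatory cells, was lower, with 149 in iTreg and 304 in naive cells (-1.03 ± 0.28).

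Surface receptors were spread over the whole range of the list. Ctla4 had 3818 in iTreg and 334 in naive cells (3.52 ± 0.42). The costimulatory TNF receptors Tnfrsf9 (4-1BB), Tnfrsf4 (OX40) and Tnfrsf18 (GITR) had ratios of 3.79, 3.69 and 2.23, with Tnfrsf4 at 58540 in iTreg and 4551 in naive cells, while the other probe of Tnfrsf9 gave 0.81. Lag3, an inhibitory receptor that binds class II molecules, had 828.6 in iTreg and 158 in naive cells (2.39). Lower in the list were Cd83 (1.95), Lrrc32 (1.90), which encodes GARP, the protein that holds latent TGF-beta on the cell surface, Cd81 (1.85), Nrp1 (1.64), the semaphorin receptor neuropilin-1, and Tigit (1.13). Izumo1r, a folate receptor family gene, and Icos, a costimulatory receptor of the CD28 family, stayed within 2-fold (0.68 ± 0.21 and 0.36 ± 0.21). Klrg1, an inhibitory receptor of differentiated cells, was the lowest gene of the list at -2.88.

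Secreted and intracellular products of the list were higher as well. Ebi3, a subunit of the cytokines IL-27 and IL-35, had 6059 in iTreg and 488.9 in naive cells (3.63 ± 0.42). Tgfb1, the TGF-beta 1 ligand itself, had 2857 in iTreg and 1376 in naive cells (1.05 ± 0.23), close to the 2-fold line. Capg, an actin-capping protein, stood at 2.38, Penk, the precursor of enkephalin peptides, at 2.34, Socs2 at 2.21, the galectin gene Lgals1 at 1.63 and Swap70 at 1.26. Genes for further suppressive products gave no ratio. Il10, Entpd1 (CD39), Areg (amphiregulin), Il12a and Itgb8 were above background in neither channel, and Gpr83 and Fgl2 only in naive cells.

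**Figure D2:**
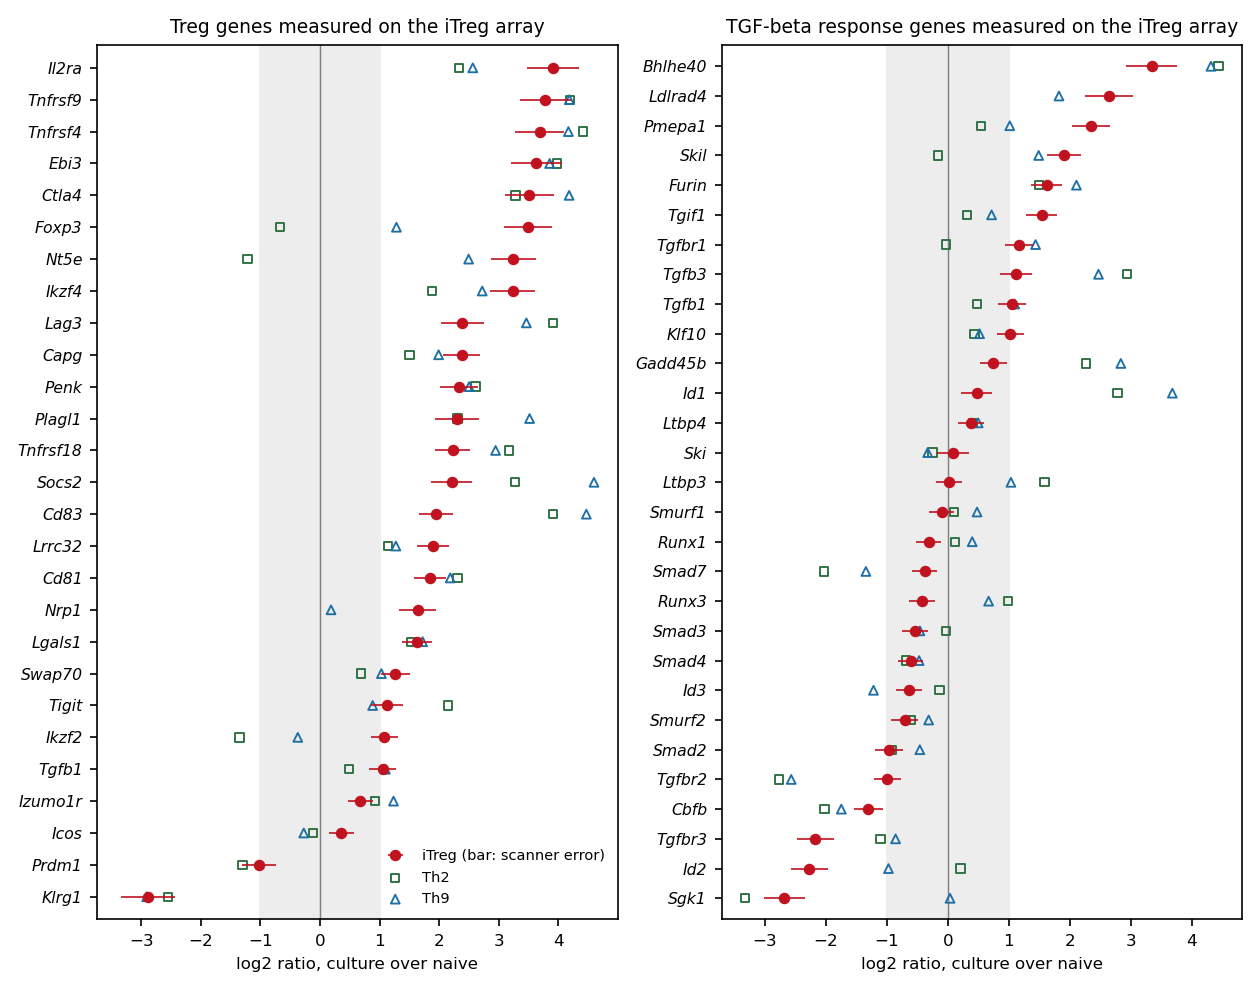
Log2 ratio of each culture over naive for the 27 Treg genes (left) and 29 TGF-beta response genes (right) measured on the iTreg array. Filled circles with bars are iTreg with the scanner error, open squares Th2 and open triangles Th9, and the grey band marks less than a 2-fold difference. Foxp3, Nt5e and Ikzf2 lie to the right of the band in iTreg and to the left of zero in Th2.

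Genes of TGF-beta signalling and its known targets lay on both sides. Of 34 on the array, 29 were measured, 10 were at least 2-fold higher and 4 lower in iTreg, with a median of 0.02, against -0.02 for all measured genes. The sign of that median was negative with median centring (-0.21), with the scanner software's ratios (-0.08) and with the deposited series values (-0.04), so no direction is given for the list.

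Among the ligands and the proteins that process them, Furin, the protease that cuts the TGF-beta precursor, had 2685 in iTreg and 873 in naive cells (1.62 ± 0.26). Tgfb3 had 359.5 in iTreg and 165 in naive cells (1.12 ± 0.26), and stood at 2.94 in Th2 and 2.47 in Th9. The latent TGF-beta binding genes Ltbp4 (0.38) and Ltbp3 (0.02) were within 2-fold. The receptor genes differed in direction. Tgfbr1, the type I receptor kinase, had 1806 in iTreg and 804 in naive cells (1.17 ± 0.23). Tgfbr2, the type II kinase that binds the ligand, had 10190 in iTreg and 20300 in naive cells (-0.99 ± 0.22), just short of 2-fold, beside -2.77 in Th2 and -2.57 in Th9. The coreceptor gene Tgfbr3 (betaglycan) was lower still, with 591.8 in iTreg and 2665 in naive cells (-2.17 ± 0.30).

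The signal transducers were all below naive but within 2-fold, with Smad2 at -0.96 ± 0.23, Smad4 at -0.61 ± 0.21 and Smad3 at -0.54 ± 0.21. Inhibitors of the pathway were split. Pmepa1 and Ldlrad4, 2 membrane proteins that are TGF-beta targets and block SMAD activation, had ratios of 2.35 ± 0.31 (1782 in iTreg, 350 in naive cells) and 2.64 ± 0.40 (810.6 in iTreg, 130 in naive cells). Skil, which encodes the SMAD corepressor SnoN, had 5074 in iTreg and 1357 in naive cells (1.90 ± 0.27), and the corepressor Tgif1 had 8408 in iTreg and 2887 in naive cells (1.54 ± 0.25). Smad7, the inhibitory SMAD that TGF-beta commonly induces, had 3306 in iTreg and 4293 in naive cells (-0.38 ± 0.21), beside -2.03 in Th2 and -1.34 in Th9. The ubiquitin ligases Smurf1 (-0.10) and Smurf2 (-0.70) and the corepressor Ski (0.08) were within 2-fold. Smad6 was above background only in iTreg, with a bound of 0.63, under 2-fold.

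Targets and partner factors completed the list. Bhlhe40, a basic helix-loop-helix repressor, had 2514 in iTreg and 248 in naive cells (3.34 ± 0.41). Klf10, a Kruppel-like factor known as an early TGF-beta response gene, lay at the 2-fold line (1.03 ± 0.23). Gadd45b (0.75), Id1 (0.47), Runx1 (-0.31), Runx3 (-0.42) and Id3 (-0.64) were within 2-fold. Id1 stood at 2.78 in Th2 and 3.68 in Th9. Lower genes were Cbfb, the partner subunit of RUNX factors (-1.30 ± 0.24), Id2, an inhibitor of E proteins (815.8 in iTreg, 3936 in naive cells, -2.27 ± 0.30), and Sgk1, a kinase of the PI3K pathway (597.8 in iTreg, 3829 in naive cells, -2.68 ± 0.33), which stood at 0.04 in Th9. Tgfbi was above background only in naive cells, and Bambi and Tgfb2 in neither. The SMAD palindrome GTCTAGAC, searched from 250 bases before to 50 after the RefSeq gene start, lay in 2 of 21 promoters of the list, those of Smad6 and Runx3 (9.52%, against 0.248% of all genes in the RefSeq promoter table), and in none of the 4 genes with a promoter that were 2-fold higher.

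The IL-2 and STAT5 genes were equally mixed, with 9 higher and 7 lower of 24 measured. The median of 0.11 was -0.12 with median centring, and -0.29 with bounds entered. The receptor chains differed. The alpha chain Il2ra was described above, the beta chain Il2rb had 11280 in iTreg and 4535 in naive cells (1.31 ± 0.24), and Il2rg, the gamma chain shared by several cytokine receptors, had 5623 in iTreg and 11980 in naive cells (-1.09 ± 0.23). The signalling genes Stat5a (1.80), Jak3 (1.5) and Stat5b (1.12) were higher. Feedback inhibitors of the SOCS family differed among themselves, with Socs2 (2.21) and Cish (1.81) higher, Socs1 at -0.94 and Socs3 lower (-1.16). The lower genes of the list included the receptor chains Il4ra at -1.35 ± 0.25 and Il7r, the receptor chain for the survival cytokine IL-7, at 1871 in iTreg against 13270 in naive cells (-2.83 ± 0.33). The survival gene Bcl2 had 1391 in iTreg and 5428 in naive cells (-1.96 ± 0.27), while its relative Bcl2l1 (BCL-XL) was at 1.75 by the probe used and 0.75 by another. Il2 was above background only in naive cells.

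Signature genes of other helper lineages differed by list. The Th1 list had 1 higher and 6 lower of 14 measured (median -0.58). Tbx21, which encodes the Th1 factor T-bet, had 140 in iTreg and 1163 in naive cells (-3.05 ± 0.48), Ifng had 198.6 in iTreg and 1172 in naive cells (-2.56 ± 0.38), and Ccl5 had 3916 in iTreg and 40920 in naive cells (-3.39 ± 0.37). Th2 genes had 3 higher and 1 lower of 13 (median 0.53). The lineage factor Gata3 was within 2-fold (0.53 ± 0.21), and Il5 and Il13 were weak in both channels (0.07 ± 0.46 and -0.07 ± 0.29). The higher ones were the chemokine receptor genes Ccr8 (3.35) and Ccr4 (1.59) and the bZIP factor Nfil3 (2.68).

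In the Th17 list 5 of 8 measured genes were higher and 1 lower, with a median of 1.1. Ccr6, the receptor for the chemokine CCL20, had 22560 in iTreg and 822 in naive cells (4.78 ± 0.52, 27.4-fold), the 13th highest ratio of all, beside -2.11 in Th2 and 1.64 in Th9. Rora, a nuclear receptor of Th17 cells (2.30), Ahr (1.11) and Stat3 (1.08) were also higher, and Il6ra was lower (-1.1). Of the Th17 cytokines, Il17a was above background only in iTreg (at least 2.40-fold higher), Il17f in neither channel and Il22 only in naive cells.

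Follicular helper genes had 4 higher and 1 lower of 10 measured (median 0.45). A further 3 were seen only in naive cells, and with bounds entered the median was -0.16, so no direction is given for the list. Pdcd1, which encodes the inhibitory receptor PD-1, had 9525 in iTreg and 1021 in naive cells (3.22 ± 0.38), beside -0.05 in Th2 and -0.25 in Th9. Bcl6, the factor of follicular helper cells, had 7316 in iTreg and 2555 in naive cells (1.52 ± 0.25), and Cxcr5, the receptor that guides cells to B cell follicles, had 2276 in iTreg and 663.5 in naive cells (1.78 ± 0.27). Both stood below naive on the other arrays, Bcl6 at -1.45 in Th2 and -1.66 in Th9 and Cxcr5 at -1.49 in Th2 and -1.88 in Th9. In the Th9 list, 4 of 8 measured genes were higher and 1 lower, and 2 more were seen only in naive cells. Its median was 0.69 over measured genes and -0.17 with bounds entered. Irf4, an activation-induced factor, had 3703 in iTreg and 307.5 in naive cells (3.59 ± 0.43) and Irf8 had 18730 in iTreg and 2531 in naive cells (2.89 ± 0.35). Il9 itself was above background in neither channel.

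Chemokine receptors separated into high and low genes, with 5 higher and 4 lower of 11 measured. Of 5 further members seen only in naive cells, 2 had a bound past 2-fold. The median was 0.85 over measured genes and -0.47 with bounds entered, so no direction is given for the list. Beside Ccr6, Ccr8, Ccr4 and Cxcr5, the fractalkine receptor gene Cx3cr1 was higher (1265 in iTreg, 411 in naive cells, 1.62 ± 0.27). Ccr7, which directs cells to lymph nodes, stayed high in both, with 120800 in iTreg and 66840 in naive cells (0.85 ± 0.22). Lower were Gpr183 (-2.12), a receptor for oxysterols, Ccr9 (-2.04), a gut-homing receptor, Cxcr3 (-1.60), a receptor of Th1 cells, and Cxcr4 (-1.31). Among chemokines, 2 of 6 measured genes were higher and 3 lower (median -0.69). Xcl1, the ligand lymphotactin, had 5871 in iTreg and 515 in naive cells (3.51 ± 0.41), and Ccl4 was at 1.18. Ccl5 (-3.39), Ccl3 (-1.17) and Cxcl10 (-1.06) were lower.

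Coinhibitory receptors and TNF family members showed a similar spread. In the CD28 family list 6 of 14 measured genes were higher and 1 was lower (median 0.80). In 1 further gene, seen only in naive cells, the bound was past 2-fold lower. Pdcd1lg2, a ligand of PD-1, was at 2.07 ± 0.31, Cd28 itself at -0.01 ± 0.20, and Btla, an inhibitory receptor of resting cells, at -1.58 ± 0.25. In the TNF receptor list 5 of 15 were higher and 1 lower. Besides the 3 named above these were Tnfrsf1b, the TNF receptor 2 gene (1949 in iTreg, 550 in naive cells, 1.82 ± 0.27), which stood at -1.1 in Th2 and 0.03 in Th9, and Tnfrsf13b (1.38, other probe 0.20). Tnfsf11, which encodes RANK ligand, led the ligands at 2.17 ± 0.30, followed by Tnfsf14 (1.55), and Ltb was the lowest (-1.31).

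The T cell receptor machinery was mostly within 2-fold, with 24 of 31 measured genes inside that range, 3 higher and 4 lower (median -0.34). These shares (9.68% and 12.9%) are near the 10.2% and 8.14% of all measured genes. Ubash3b, a phosphatase acting on ZAP-70, was higher, with 14550 in iTreg and 3646 in naive cells (2.00 ± 0.28). So were Ptpn22, a phosphatase of proximal kinases (1.27), and the ubiquitin ligase Cblb (1.17, other probe -0.29). Ubash3a (0.14), Csk (-0.29), Dgkz (-0.30) and Dgka (-0.76) were within 2-fold. Among the lower ones were Cd247, the zeta chain (-1.15), Prkcq (-1.05) and Ptprc (-1.02). Defining CD4 T cell markers were present in both channels, with Cd4 at 10380 in iTreg and 13210 in naive cells and Cd3d at 64790 in iTreg and 68960 in naive cells.

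Feedback regulators of kinase and G protein signalling held some of the largest ratios. In the list of DUSP, SPRY and RGS genes 9 of 18 measured genes were higher and 4 lower. Dusp4, a nuclear MAP kinase phosphatase, had 8163 in iTreg and 166 in naive cells (5.62 ± 0.66, 49.3-fold), beside 4.7 in Th2 and 6.2 in Th9. Rgs16, which shortens signalling by G protein coupled receptors, had 14960 in iTreg and 327 in naive cells (5.51 ± 0.61, 45.7-fold), beside 2.68 in Th2 and 3.66 in Th9. Spry1, an inhibitor of ERK signalling, had 6742 in iTreg and 535 in naive cells (3.65 ± 0.42). Dusp1 (-1.85), Dusp7 (-1.80), Dusp2 (-1.27) and Rgs19 (-1.23) were lower, so members of the DUSP family stood on both sides.

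Early response factors were likewise divided, 7 higher and 2 lower of 16. Egr2 and Egr1, zinc finger factors induced by receptor signalling, were at 2.13 ± 0.29 and 1.97 ± 0.28, with Egr1 at 14870 in iTreg and 3806 in naive cells. They stood at 0.99 and 1.07 in Th2 and at -0.28 and -0.38 in Th9. The orphan receptors Nr4a2 (2.17) and Nr4a1 (1.80) were also higher. The AP-1 genes Fos (387.6 in iTreg, 2678 in naive cells, -2.79 ± 0.36) and Jun (-1.28) were lower.

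Genes of the naive and quiescent state were lower as a group, but less than 2-fold in most cases. Of 42 measured genes 18 were lower (43% against a background of 8.14%) and 1 was higher, and the median was -0.75, against -1.86 in Th2 and -1.88 in Th9. Zfp36l2, an RNA-binding protein that promotes mRNA decay, had 16980 in iTreg and 102600 in naive cells (-2.60 ± 0.31). Tsc22d3, which encodes the glucocorticoid-induced protein GILZ, was at -2.17, Satb1, a chromatin organiser, at -1.72, Lef1 at -1.44 and Klf2, the factor that sustains quiescence and homing, at -1.27.

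Several hallmark genes of naive cells stayed within 2-fold. Tcf7, the TCF-1 gene, had 6714 in iTreg and 10760 in naive cells (-0.68 ± 0.21), Foxo1 was at -0.52, Foxp1 at -0.44, Bach2, a repressor of effector genes, at 0.39, and Cd27 at -0.06. Ms4a4b, a tetraspanning surface protein, had 45150 in iTreg and 91380 in naive cells (-1.02 ± 0.23), beside -5.10 in Th2 and -4.97 in Th9. Ramp1, which encodes a subunit of the receptor for the neuropeptide CGRP, was the exception, with 20890 in iTreg and 4145 in naive cells (2.33 ± 0.30). Ly6c1 was the lowest, with 918.6 in iTreg and 30330 in naive cells (-5.05 ± 0.53, and -3.92 by its other probe).

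Interferon-stimulated genes were lower in iTreg. Of 45 on the array 39 were measured, 24 were at least 2-fold lower (61.5% against 8.14% of all measured genes) and none was higher, with a median of -1.36. In 23 of the 24 the ratio passed the 2-fold line by more than the scanner error. Of 6 further members seen only in naive cells, 5 had a bound past 2-fold. These genes are switched on by interferons through the factor complex ISGF3, which binds a DNA element called ISRE. Its core was searched as TTTCNNTTT on both strands in the window from 250 bases before to 50 after the RefSeq gene start (assembly GRCm38.p6). It lay in 24 of 33 promoters of the list (72.7%) and in 12.1% of the promoters of 27025 genes in the table. Of the 22 with a promoter that were 2-fold lower by ratio or bound, 17 held it. Here and for the other motifs, the list was drawn up from known gene functions. A share above that of all genes may therefore come from the choice of list, and is not a result of this array.

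Stretches of 5 such promoters, from the genes with low ratios or bounds described next, are shown 5′ to 3′ on the gene's strand, with matches to the core on either strand in capitals and overlapping matches joined. In each of them the core occurs more than once. A match is a description of the letters and not evidence of binding.
Isg15 (chr4:156200845-156200925, minus strand): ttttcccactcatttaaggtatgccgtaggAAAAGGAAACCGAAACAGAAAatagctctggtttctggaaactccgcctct
Ifit1 (chr19:34640755-34640842, plus strand): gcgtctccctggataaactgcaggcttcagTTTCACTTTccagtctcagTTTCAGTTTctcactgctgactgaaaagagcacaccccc
Ifit3 (chr19:34583343-34583445, plus strand): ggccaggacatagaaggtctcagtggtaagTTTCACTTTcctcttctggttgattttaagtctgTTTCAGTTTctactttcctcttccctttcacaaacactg
Oasl1 (chr5:114923033-114923122, plus strand): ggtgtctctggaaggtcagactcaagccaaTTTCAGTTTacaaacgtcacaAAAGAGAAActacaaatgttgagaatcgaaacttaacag
Rsad2 (chr12:26456521-26456602, minus strand): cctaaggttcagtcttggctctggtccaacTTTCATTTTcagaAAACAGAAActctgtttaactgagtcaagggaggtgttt

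The lowest ratio of the list belonged to Rtp4, a chaperone of receptor transport, which had 244.7 in iTreg and 7536 in naive cells (-4.94 ± 0.58, 30.8-fold lower). Isg15, a ubiquitin-like modifier, had 1453 in iTreg and 11070 in naive cells (-2.93 ± 0.35). The oligoadenylate synthetase genes Oas1a (-3.61, other probe -1.91), Oas2 (-3.06) and Oasl1 (-2.95) and the Schlafen gene Slfn8 (-3.27, other probe -1.03) were lower too. Ifit3 and Ifit2, which bind foreign RNA, were at -2.19 and -1.95, and Ifit1 had 1053 in naive cells and no signal well above background in iTreg, at least 8.67-fold lower. Rsad2, the antiviral enzyme viperin, was at least 2.90-fold lower in the same way.

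Sensors and signalling factors of the response differed among themselves. The master regulator Irf7 had 220.7 in iTreg and 897 in naive cells (-2.02 ± 0.33), and the RNA sensors Ifih1 (-1.91) and Ddx58 (-1.80) were lower. Irf9 (-0.79) and Stat2 (-0.39), which are parts of ISGF3, were within 2-fold. Ifi27l2a had the highest ratio of the list, with 106500 in iTreg and 69180 in naive cells (0.62 ± 0.21). The list's median was -1.58 in Th2 and -2.52 in Th9.

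Class I antigen presentation, which interferons also raise, was lower in 10 of 16 measured genes and higher in none (median -1.36). The heavy chain H2-K1 had 43370 in iTreg and 257500 in naive cells (-2.57 ± 0.32), and B2m, the light chain, had 35540 in iTreg and 156600 in naive cells (-2.14 ± 0.29). Nlrc5, the transactivator of class I genes, was at -3.40 by the probe used and -0.31 by another. The immunoproteasome subunits Psmb10 (-1.85) and Psmb9 (-1.09) and the peptide transporter Tap2 (-1.62) were lower, while Psmb8 (-0.62) and Tap1 (-0.81) were within 2-fold. The 26 constitutive proteasome genes were all within 2-fold (median -0.15).

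Class II genes were higher. Of the 7 with a ratio, 6 passed 2-fold, with a median of 2.06, against 2.70 in Th2 and 2.58 in Th9. H2-Ab1 had 13250 in iTreg and 1324 in naive cells (3.32 ± 0.39), H2-Oa, part of a peptide-loading regulator, had 9638 in iTreg and 1097 in naive cells (3.13 ± 0.37), and the invariant chain Cd74 had 2462 in iTreg and 489.4 in naive cells (2.33 ± 0.31). H2-Aa and Ciita, the class II transactivator, were above background only in naive cells, faintly, with no bound past 2-fold. B cells and myeloid cells carry class II genes, so their markers are given beside these values. Of 12 B cell markers, 5 were above background in iTreg and 4 in naive cells, with summed intensities of 3615 and 1804. Marker sums here and below include markers at background, so part of each sum is floor signal. Of the 4 measured, Cd79b was higher, with 1944 in iTreg and 545.5 in naive cells. Bank1 (0.72), Cr2 (0.26) and Cd22 (-0.01) were within 2-fold. In 1 further marker, seen only in iTreg, the bound was past 2-fold. The other 7, among them Ms4a1, Cd79a, Pax5 and Ebf1, were at background in both. The cell source of the class II RNA was not tested. Of 16 myeloid markers 12 were above background in iTreg and 13 in naive cells (sums 20920 and 26370).

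NK cell markers were lower. All 8 measured NK markers were at least 2-fold lower (median -3.15), and the other 6 on the array were above background only in naive cells. The 14 markers summed to 3644 in iTreg, with those at background there included, and to 22220 in naive cells. Tyrobp, the adaptor of activating NK receptors, had 213 in iTreg and 2431 in naive cells (-3.52 ± 0.45), and Fcer1g had 233 in iTreg and 2628 in naive cells (-3.50 ± 0.44). Klra8 and Klrb1c were at least 37.0-fold and 10.1-fold lower, and Klra4 was at -4.02. Binding of Klra probes to related transcripts was not tested, and Klra7 had -3.59 by 1 probe and 0.04 by another. Fewer cells of a type and less of its RNA per cell cannot be told apart in such bulk RNA.

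The cytotoxic granule list was divided, with 5 lower, 2 higher and 4 within 2-fold of 11 measured genes (median -0.76). Gzma, which encodes the protease granzyme A, had the lowest ratio of all measured genes, with 631 in iTreg and 56140 in naive cells (-6.48 ± 0.67, 89.0-fold lower), beside -2.80 in Th2 and -4.35 in Th9. Gzmb (-1.85), Gzmm (-1.55) and Prf1, the pore-forming perforin (-1.31), were also lower, as was Serpinb9, a granzyme inhibitor, at the 2-fold line (-1.004 ± 0.26). Serpinb6b, another serpin (1.54), and Ctsw, a cathepsin (1.33), were higher, and Gzmk (0.11) and Nkg7 (-0.76) were within 2-fold. Eomes, a factor shared by NK cells and cytotoxic T cells, had 360 in iTreg and 1042 in naive cells (-1.53 ± 0.27). The part of the NK markers in the lower Th1 and granule genes was not tested. Of 12 measured myeloid markers 5 were lower, none was higher and 7 were within 2-fold (median -0.61), between S100a9 at -2.23 and Lst1 at 0.22. Of the other cell types, Cd8a was at background in both channels and Hba-a1 of red cells was at -2.71.

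**Figure D3:**
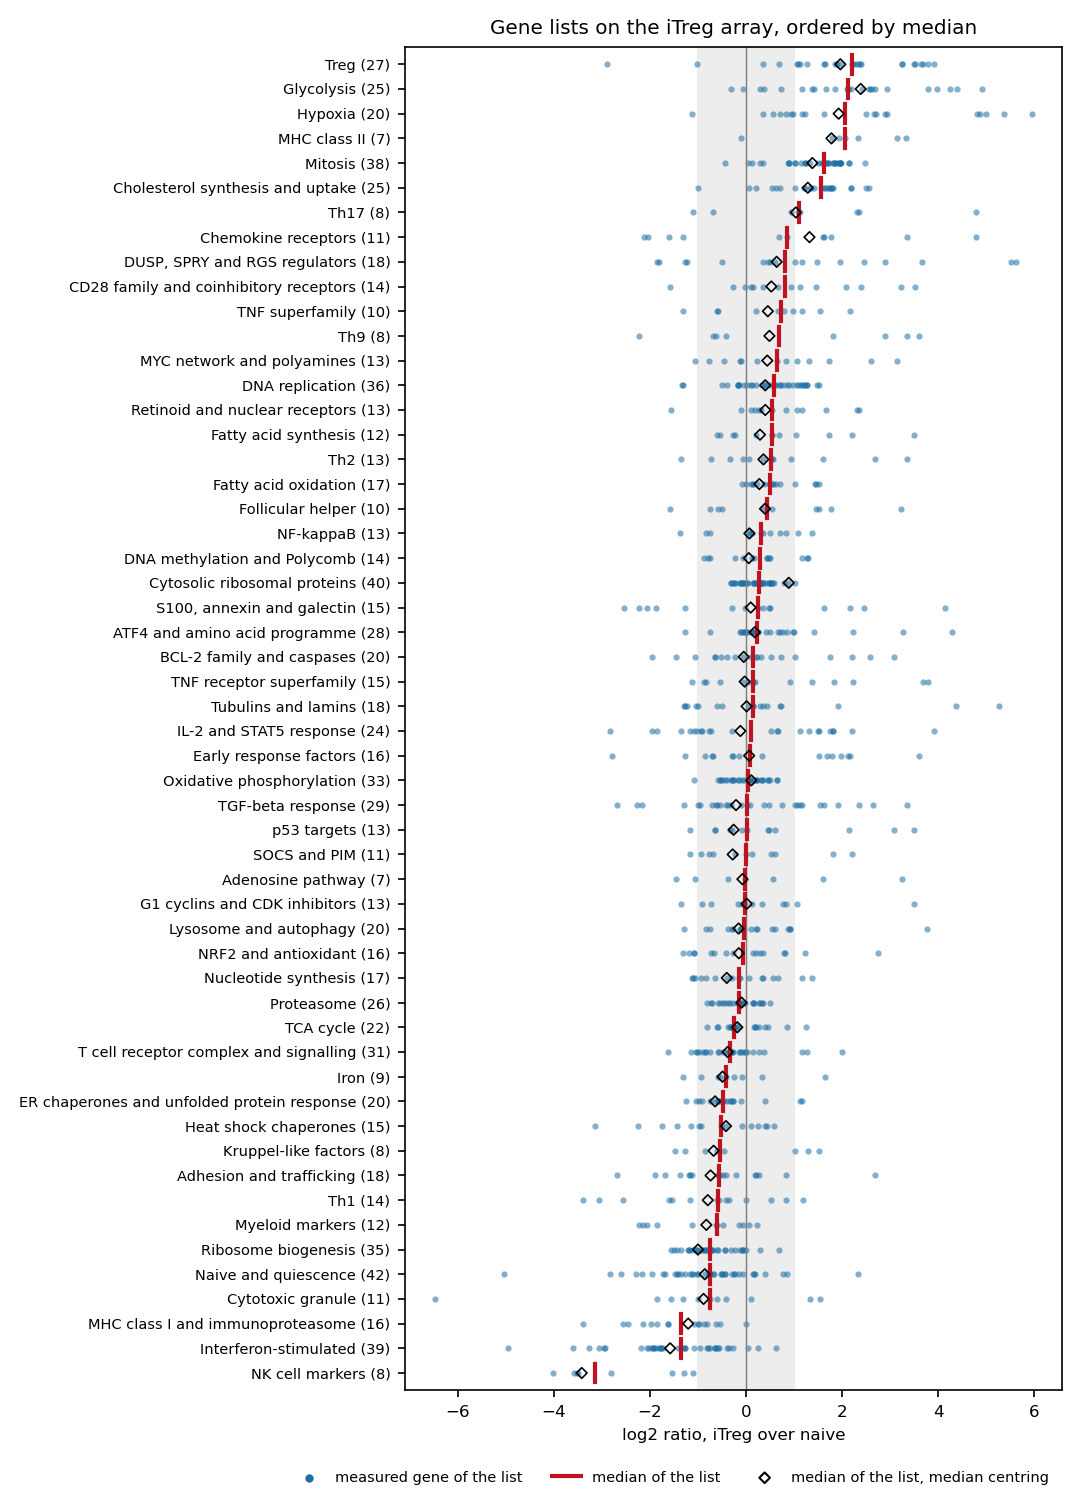
Log2 ratio, iTreg over naive, of the measured genes of each list with at least 7 of them (number in brackets), ordered by median. Dots are genes, red bars the list medians with loess, open diamonds the medians with median centring, and the grey band less than 2-fold. Treg, glycolysis, hypoxia, class II, mitosis, cholesterol and Th17 lists have medians above the band and the class I, interferon and NK lists below it under both scalings.

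Cell division genes were higher in the stimulated culture. Of 38 measured mitosis genes 30 were at least 2-fold higher (78.9% against 10.2% of all measured genes) and none lower, with a median of 1.63, against 3.00 in Th2 and 3.15 in Th9. Ube2c, the ubiquitin-conjugating enzyme of mitotic exit, had 3329 in iTreg and 603 in naive cells (2.46 ± 0.32). The cyclins Ccna2 (2.13), Ccnb1 (1.97) and Ccnb2 (1.96), the kinase Cdk1 (1.81) and the proliferation marker Mki67 (4812 in iTreg, 1466 in naive cells, 1.72 ± 0.26) followed. The lowest was Pttg1, which encodes securin, at -0.43.

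Replication genes differed less, with 10 higher and 2 lower of 36 (median 0.59, against 1.56 in Th2 and 1.57 in Th9). Gins2, part of the replicative helicase, was the highest (1.52 ± 0.29), followed by Tk1, a thymidine kinase (1.48). Of the replicative helicase subunits, Mcm6 was at 0.85, Mcm7 at 0.12, Mcm3 at -0.15, Mcm5 at -0.16 and Mcm4 at -0.51, and Mcm2 was lower, with 688 in iTreg and 1697 in naive cells (-1.30 ± 0.25). The licensing factor Cdt1 was lower as well (-1.33 ± 0.23). Of the cell cycle inhibitors, Cdkn1a, the p21 gene, had 1277 in iTreg and 113 in naive cells (3.50 ± 0.52), while Cdkn1b was at -0.02, and the G1 cyclins Ccnd2 and Ccnd3 were at -0.73 and -0.91.

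Mitotic genes are commonly controlled through a promoter element called CHR, searched as TTTGAA. It lay in 27 of 36 mitosis promoters with a sequence (75%), among them 19 of the 27 genes that were 2-fold higher, and in 20.2% of all promoters in the table. The E2F elements TTTCCCGC and TTTGGCGC lay in 6 and 5 of 31 replication promoters, against 1.24% and 0.585% of all, but neither lay in any of the 6 replication genes with a promoter that were 2-fold higher. The promoter of Mki67 holds the CHR letters at 2 places and that of Ccnb2 at 1, in capitals below, shown because both genes were named above.
Mki67 (chr7:135716442-135716525, minus strand): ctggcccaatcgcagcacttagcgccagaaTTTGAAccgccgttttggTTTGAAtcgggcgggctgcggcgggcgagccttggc
Ccnb2 (chr9:70421686-70421751, minus strand): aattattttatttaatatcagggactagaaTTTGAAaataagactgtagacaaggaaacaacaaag

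Glycolysis was the metabolic pathway with the clearest difference. All 25 of its genes were measured, 20 were at least 2-fold higher in iTreg (80.0% against 10.2%), none was lower, and the median was 2.12, close to 2.37 in Th2 and 2.21 in Th9. Glucose enters through transporters encoded by Slc2a1 (2.11 ± 0.29) and Slc2a3 (2.56 ± 0.31). Hk2, the inducible hexokinase that traps it, had 2604 in iTreg and 165 in naive cells (3.98 ± 0.49), whereas Hk1 was at 0.38. Tpi1, triosephosphate isomerase, had 59740 in iTreg and 2833 in naive cells (4.40 ± 0.47), and Pgk1, phosphoglycerate kinase, had 124900 in iTreg and 9044 in naive cells (3.79 ± 0.41). The enzyme that makes lactate, Ldha, was at 1.85 and the lactate exporter Slc16a3 had 21220 in iTreg and 708 in naive cells (4.91 ± 0.53). Ldhb (-0.32) and the lactate transporter gene Slc16a1 (-0.06) did not reach 2-fold. Gapdh and Aldoa, often used as constant controls, had 219400 and 197400 in iTreg against 35530 and 32820 in naive cells.

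The low-oxygen programme was higher too, in 13 of its 20 measured genes, with 1 lower. Its median was 2.06, against 2.73 in Th2 and 2.62 in Th9. Mgarp, a mitochondrial protein, had 9004 in iTreg and 145 in naive cells (5.95 ± 0.68), and Egln3, a prolyl hydroxylase that marks HIF for decay, had 6229 in iTreg and 152 in naive cells (5.36 ± 0.65). Ak4, a mitochondrial adenylate kinase, was at 4.99, Bnip3, a mitophagy receptor, at 4.87, Ndrg1 at 4.81 and the growth factor Vegfa at 2.88. Hif1a itself was at 0.57 ± 0.21, Pdk1, which shuts pyruvate dehydrogenase, at 0.83 ± 0.22, and Ddit4, an inhibitor of mTORC1, was lower, with 36680 in iTreg and 80350 in naive cells (-1.13 ± 0.23). Oxygen in the culture was not among the labels.

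HIF binds DNA at an element whose core is ACGTG. It lay in 17 of 20 hypoxia promoters (85.0%) and 14 of 24 glycolysis promoters (58.3%), against 21.8% of the promoters of all genes in the table. All 11 hypoxia genes with a promoter that were 2-fold higher held it, and so did Ddit4, which was lower, and 12 of 19 higher glycolysis genes. The core is shown in capitals, on either strand, for 4 of the highest genes of the 2 lists.
Mgarp (chr3:51396732-51396796, minus strand): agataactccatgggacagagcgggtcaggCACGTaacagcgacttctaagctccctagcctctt
Ak4 (chr4:101419459-101419524, plus strand): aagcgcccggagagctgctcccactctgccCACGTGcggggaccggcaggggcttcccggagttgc
Bnip3 (chr7:138909579-138909644, minus strand): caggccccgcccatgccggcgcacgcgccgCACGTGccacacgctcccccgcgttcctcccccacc
Pgk1 (chrX:106186920-106187003, plus strand): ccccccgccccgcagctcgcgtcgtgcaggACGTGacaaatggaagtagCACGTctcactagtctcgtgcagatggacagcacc

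**Figure D4:**
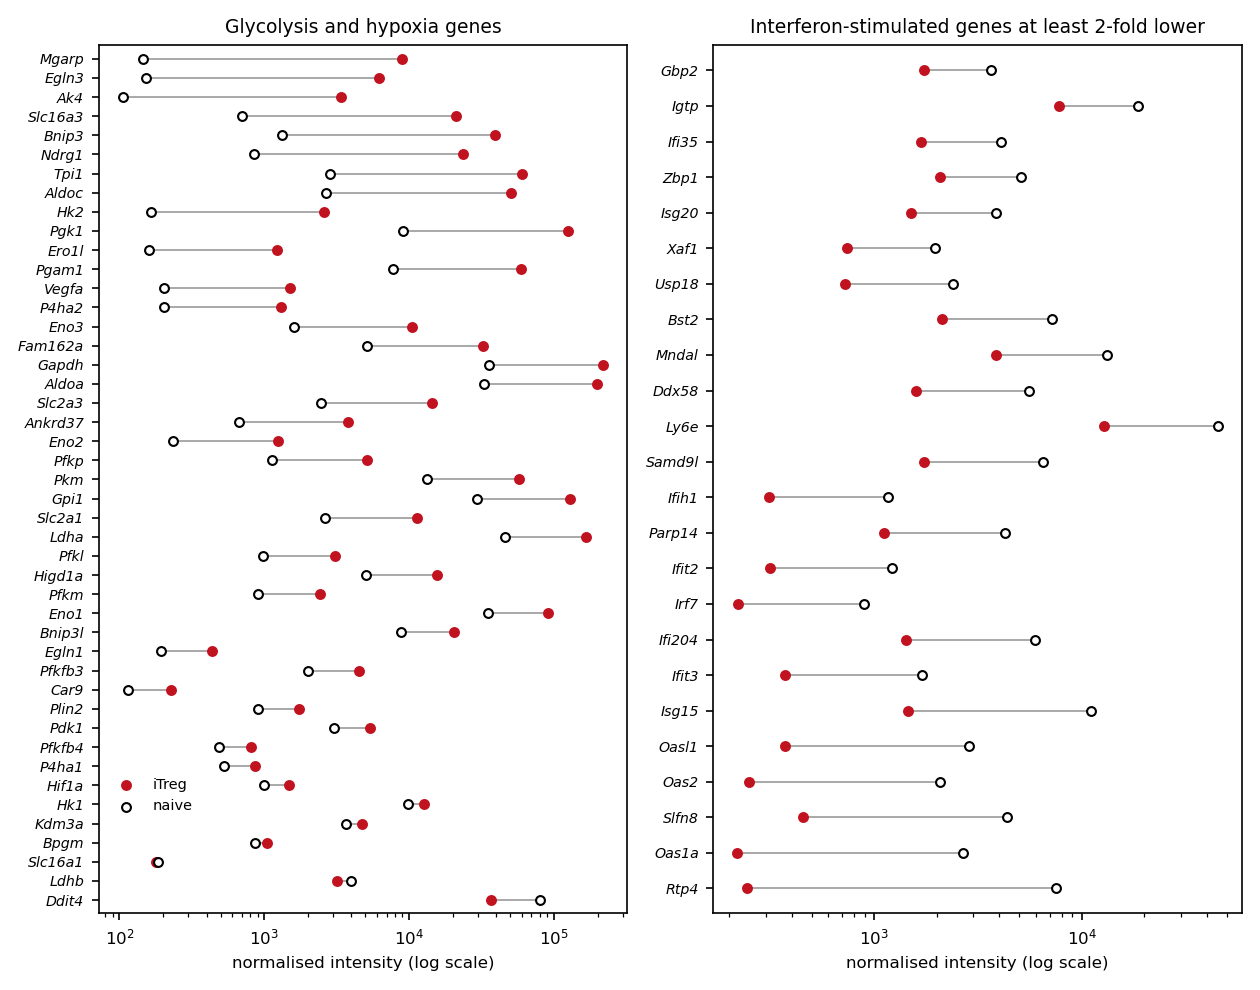
Normalised intensity (log scale) in iTreg (filled circles) and naive cells (open circles) for measured glycolysis and hypoxia genes (left) and for the 24 interferon-stimulated genes at least 2-fold lower in iTreg (right, chosen by that ratio), each ordered by ratio. All but 3 of the genes on the left are brighter in iTreg (Slc16a1, Ldhb and Ddit4 are not), and on the right the gap is widest for Rtp4.

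Mitochondrial pathways stayed near naive levels. Of 22 tricarboxylic acid cycle genes 21 were within 2-fold (median -0.24), and pyruvate carboxylase, Pcx, was the exception with 592 in iTreg and 249 in naive cells (1.25 ± 0.25), beside 3.03 in Th2 and 3.63 in Th9. Of 33 oxidative phosphorylation genes 32 were within 2-fold (median 0.04), Ndufa4 alone being lower (-1.08 ± 0.22). Fatty acid oxidation had 4 of 17 higher, namely Decr1 (1.51), Acadl (1.47), Etfdh (1.43) and Cpt2 (1.02), and none lower.

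Sterol synthesis was higher, with 19 of 25 measured genes past 2-fold and 1 lower. The median was 1.56, against 2.03 in Th2 and 2.14 in Th9. Hmgcs1, an early enzyme of the pathway, had 15200 in iTreg and 3366 in naive cells (2.17 ± 0.29). Pmvk (2.56), Idi1 (2.19), Sqle (1.81) and Insig1, the feedback sensor (1.61), were higher. Scap, the escort of the sterol-regulated factors, lay on the 2-fold line (-1.0 ± 0.22). Genes of sterol export were split, with Abca1 higher (1.13 ± 0.24) and Mylip (-2.14, other probe -0.84) and Apoe (-1.73) lower. A sterol regulatory element, searched as TCACCCCAC, lay in 1 of 18 promoters of the list, that of Hmgcs1, and in 0.614% of all promoters.
Hmgcs1 (chr13:119690184-119690252, plus strand): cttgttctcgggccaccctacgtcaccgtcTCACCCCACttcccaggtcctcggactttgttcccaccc

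Of 12 measured fatty acid synthesis genes 4 were higher and none lower. Scd2, a desaturase, had 22520 in iTreg and 1996 in naive cells (3.50 ± 0.39), and Scd1 was seen only in iTreg, at least 9.39-fold higher. Fasn (-0.61) and Acaca (0.54) were within 2-fold. Odc1, the first enzyme of polyamine synthesis, had 11970 in iTreg and 1359 in naive cells (3.14 ± 0.36), while Srm, which makes spermidine, was lower (-1.06 ± 0.23) and Myc was at 0.64.

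The amino acid programme of the factor ATF4 was higher only in part. Of 28 measured genes 5 were higher and 1 lower, with a median of 0.22, against 1.15 in both Th2 and Th9. Asns, asparagine synthetase, had 2504 in iTreg and 129 in naive cells (4.28 ± 0.55), Stc2 was at 3.27 and Trib3 at 2.23. Nupr1, a stress-induced cofactor, was seen only in iTreg, at least 8.63-fold higher. Atf4 itself was at -0.06 ± 0.20, and the aminoacyl-tRNA synthetase genes Nars (0.12), Gars (0.12), Eprs (0.10) and Aars (0.02) were close to naive. The amino acid response element, searched as TGATGNAA, lay in 8 of 28 promoters of the list (28.6%), among them 2 of the 5 higher genes, and in 4.51% of all promoters. Nupr1 is shown because its bound is among the highest.
Nupr1 (chr7:126625543-126625610, minus strand): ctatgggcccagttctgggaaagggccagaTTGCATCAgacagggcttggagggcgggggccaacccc

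**Figure D5:**
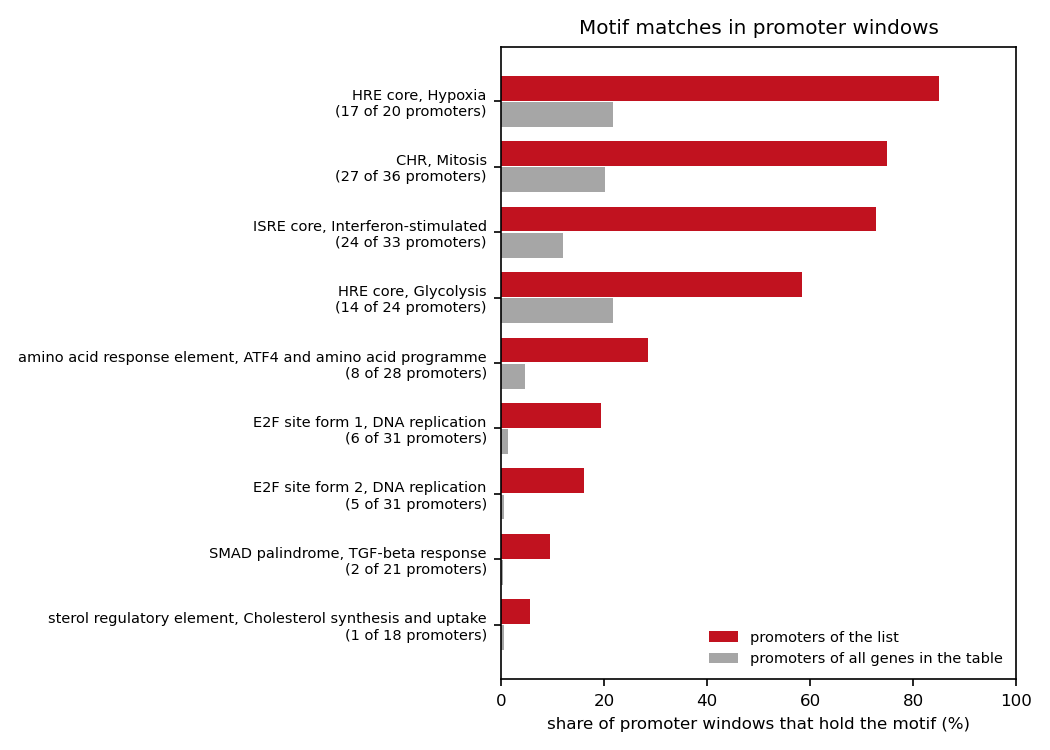
Share of promoter windows that hold each motif on either strand, for the genes of a list (red) and for all genes in the promoter table (grey), with the numbers of promoters in brackets. The shares are 85.0% against 21.8% for the hypoxia list, 75% against 20.2% for mitosis and 72.7% against 12.1% for interferon-stimulated genes. The lists were drawn up from known gene functions, so these contrasts describe the lists and not the array.

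Heat shock and ribosome assembly genes were within 2-fold of naive levels or lower. Of 15 heat shock chaperone genes 5 were lower and none higher, led by Hsph1 (1409 in iTreg, 12450 in naive cells, -3.14 ± 0.36) and Dnaja1 (-2.25, other probe -0.78). Of 20 endoplasmic reticulum chaperone genes 2 were higher, P4hb and Xbp1 (1.17 and 1.12), and 2 lower, Hsp90b1 and Hspa5 (-1.25 and -1.05). These shares (10.0% each way) are near the 10.2% and 8.14% of all measured genes. Ribosome biogenesis factors had 11 of 35 lower (31.4%) and none higher, with a median of -0.75, for example the polymerase I subunits Polr1b (-1.56) and Polr1a (-1.5) and the nucleolar protein Nop56 (4689 in iTreg, 12660 in naive cells, -1.43 ± 0.24). Of 40 cytosolic ribosomal protein genes 39 were within 2-fold, with a median of 0.27 that was 0.89 with median centring.

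Some smaller families split by member. Among tubulins Tubb6 had 9036 in iTreg and 234 in naive cells (5.27 ± 0.60) and Tubb2b had 16530 in iTreg and 805 in naive cells (4.36 ± 0.48), while Tuba4a (-1.29) and Tuba1a (-1.26) were lower. Lgals3, a galectin, had 23760 in iTreg and 1351 in naive cells (4.14 ± 0.45), Anxa2 was at 2.45, and S100a6 (-2.54) and S100a4 (-1.88) were lower. Lmna, which encodes lamin A and C, had 205 in iTreg and 422 in naive cells (-1.04 ± 0.25), beside 1.75 in Th2 and 2.27 in Th9. Gabarapl1, an autophagosome protein, was the 1 higher gene of its list, with 19880 in iTreg and 1472 in naive cells (3.75 ± 0.42) where 18 of 20 genes were within 2-fold and Ctsd, a lysosomal protease, was lower (-1.296 ± 0.23). Cd44, the adhesion receptor of activated cells, was at 2.68 (other probe 1.30), and Itgb7 (-1.90) and Icam2 (-2.69) were lower. In the adenosine pathway, the nucleoside transporter gene Slc29a1 was higher, as Nt5e was, at 1.60 ± 0.26, the degrading enzymes Ada (-1.45) and Adk (-1.07) were lower, and the receptor Adora2a was at 0.55.

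The highest ratios over all measured genes lay mostly outside the T cell lists. Bdh2, a cytosolic dehydrogenase, came first with 10980 in iTreg and 146 in naive cells (6.23 ± 0.73, 75.1-fold). Mgarp, Dusp4, Rgs16 and Egln3 followed, then AA467197 (4003 in iTreg, 98.6 in naive cells, 5.34 ± 0.72), Slc9b2, a sodium and proton exchanger (6041 in iTreg, 154 in naive cells, 5.29 ± 0.62), and Tubb6. Naive signals under 200 in several of these genes lie near the lowest that counted as measured. Further down the 25 highest stood Adssl1, an adenylosuccinate synthase (4.76), Pygl, a glycogen phosphorylase (4.66), Tg, thyroglobulin (4.60), Prelid2 (4.59), Nrn1, the membrane-anchored protein neuritin (4.58), the receptor tyrosine kinase Axl (4.46), the prion protein gene Prnp (4.31) and the metallothionein Mt1 (4.15). Among these 25, the naive channel varied most over the 3 arrays in Mt1, Tg and Tubb6. Their SDs were 1.07, 0.60 and 0.54 in log2, against a 95th percentile of 0.15 over genes.

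Among genes seen only in iTreg, 160 had a bound of at least 2-fold. The highest were Dkk3, a secreted protein of the Dickkopf family (1849 in iTreg, at least 20.0-fold higher), Perp (at least 16.8-fold), the lipoprotein receptor Vldlr (at least 15-fold) and Fam183b (at least 14.6-fold). Gls2, a mitochondrial glutaminase, was at least 7.25-fold higher. In the other direction 78 genes seen only in naive cells had such a bound. Besides NK receptor genes they included Afp (at least 9.27-fold lower), Nacc2 (at least 8.00-fold), S1pr5, the sphingosine phosphate receptor of NK cells (at least 7.47-fold), and Ctsg, a granule protease of myeloid cells (at least 7.05-fold).

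The lowest measured ratios after Gzma, Ly6c1 and Rtp4 were dominated by the families described above, with some others among the 25 lowest. Dtx1, a regulator of Notch signalling, had 1688 in iTreg and 25320 in naive cells (-3.91 ± 0.42). Mpo, the myeloperoxidase of neutrophils, had 198 in iTreg and 2846 in naive cells (-3.85 ± 0.50). Vipr1, the receptor for vasoactive intestinal peptide, was at -3.60 by the probe used and -0.87 by another, Ly6a, the surface protein Sca-1, at -3.58, and Prag1 at -3.42. The interferon-inducible p200 genes Ifi214 (-3.92), Ifi209 (-3.78) and Ifi208 (-3.36) belong to a family of similar sequences, and binding of their probes to related transcripts was not tested.

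The 2-fold line separates genes that differ little from each other. Just inside it on the higher side were Lysmd2, Nrgn, Tmem219, Prkca and Cebpb, with log2 ratios of 1.00 to 1.01, and just outside were Glrx, Tmed3, St3gal3, Zdhhc9 and Blmh, all at 1.00 after rounding. On the lower side Traf2, Scap, Msra, Nek3 and Tmco4 (-1.0) lay inside and Lasp1, Dennd6b, B4galt5, Atp10a and Ubr4 (-1.0) outside. Their scanner errors were 0.22 to 0.27. Where a gene had several measured probes, 150 of 2660 genes had a probe that differed by more than 2-fold from the probe used. In 465 of 481 such genes past 2-fold (96.7%) the other probes had the same sign.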

How the data were processed

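RNA of 3 polarised cultures was measured against naive RNA on 3 Agilent 2-colour arrays of 1 slide, and the iTreg array is described here. The deposited scanner files hold intensity values (median spot and local background signals in Cy5 and Cy3), per the file headers written by Feature Extraction 11.0.1.1, whereas the submitters' processing notes name 9.3.2.1. Per the file headers, the same software added log10 ratios (red over green) and an error for each. The deposited series values are log2 ratios. They equalled the log2 processed ratio plus a constant of 0.0366 in 99.4% of 39425 probes within 0.001, with a column median of 0.283; the reason for the constant is not given in the sources used here.

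Median signals were background-corrected (normexp, offset 50) and loess-normalised within the array with limma 3.58.1 in R 4.3.3. Outlier spots (292) and controls were left out and replicate spots averaged. Probes were named through their RefSeq accession from the GRCm38.p6 gene table, and 26052 of 39425 probes had a gene. The brightest probe stood for each gene. A gene counted as measured if both channels were well above background. The code was tested on simulated data in which few spots were changed, so the scaling was not tested at the shares found here. With 1 array there is no replicate test and no p-value, and the call is by size, at least 2-fold. In all, 62 gene lists were used. The lists and the array were chosen with earlier results of these data known. Genes named are list members, starting with the highest and lowest, all measured Treg and TGF-beta genes, the 25 highest and 25 lowest ratios, the 15 highest bounds each way, and the 5 genes nearest each side of the threshold. Alternatives were median centring, offset 16, the scanner software's ratios, the deposited series values, the mean over probes, signals at least 2 times background, and the mean of the 3 naive channels. Some list members are not reported here. Promoter windows are RefSeq's.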

Additional observations from a re-analysis of the deposited data

Results flagged for a closer look

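In 7 genes the iTreg ratio and both other ratios passed 2-fold in opposite directions. Of all measured genes, 18.4% passed 2-fold in either direction in iTreg, 29.3% in Th2 and 31.1% in Th9. Each array holds 1 sample of its culture, the naive RNA may be shared, and the difference was not tested. Cxcr5, the follicle-homing receptor, had a log2 ratio of 1.78 in iTreg, -1.49 in Th2 and -1.88 in Th9. Bcl6, the factor of follicular helper cells, had 1.52 in iTreg, -1.45 in Th2 and -1.66 in Th9. Dtx4, of the Deltex family, had 1.16 in iTreg, -1.45 in Th2 and -1.55 in Th9. Art4, of the ADP-ribosyltransferase family, had 1.12 in iTreg, -2.10 in Th2 and -1.44 in Th9. Smpdl3a, a phosphodiesterase related to acid sphingomyelinase, had 1.11 in iTreg, -4.12 in Th2 and -2.59 in Th9. Arl5c, of the ARF-like GTPases, had 1.08 in iTreg, -1.72 in Th2 and -1.0 in Th9. Lmna was the single gene in the opposite sense, with -1.04 in iTreg, 1.75 in Th2 and 2.27 in Th9. The iTreg ratios of Dtx4, Art4, Smpdl3a, Arl5c and Lmna lay within the median scanner error (0.22) of the 2-fold line. Arl5c lay at the line in Th9 as well.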

How the results depend on the processing

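Over the 7 alternatives the number of genes at least 2-fold higher ran between 908 and 1533 (1135 as reported) and of lower genes between 828 and 1328 (904). The log2 ratio of Foxp3 ran between 3.23 and 3.74, of Il2ra between 3.74 and 4.17, and of Nt5e between 3.13 and 3.50. Of the 2039 genes past 2-fold, 1712 stayed past it with median centring and none took the opposite sign in any alternative. List medians moved most with median centring, in 23 lists against 37 that moved by less than the median scanner error, to 1.96 (Treg), -0.21 (TGF-beta), -0.12 (IL-2), -1.58 (interferon), 1.78 (class II), 1.38 (mitosis), 2.39 (glycolysis), 1.29 (cholesterol), 0.29 (fatty acid synthesis), 0.28 (fatty acid oxidation), -1.0 (ribosome biogenesis), 0.89 (ribosomal proteins), -0.40 (nucleotides), 0.53 (CD28 family), 0.45 (TNF ligands), 1.32 (chemokine receptors), 0.07 (NF-kappaB), -0.28 (SOCS and PIM), 0.03 (aryl hydrocarbon receptor), -0.26 (p53), 0.06 (DNA methylation), -0.45 (E proteins) and -3.42 (NK). With the scanner software's ratios 15 moved, among them Treg (2.44), Th1 (-1.05), class II (2.54), mitosis (1.93), hypoxia (2.31) and NK (-4.12), and 15 did with the deposited series values. Median signs differed between settings in the TGF-beta, IL-2, G1 cyclin, TNF receptor, early response, SOCS, adenosine, p53, BCL-2 and lysosome lists, all within 0.16 of zero as reported. The causes were not tested.

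No paired analysis was possible because each culture has 1 array. Without replicates no spread between mice or cultures can be given. Without a dye swap, dye and culture cannot be told apart, and there was no culture activated without added cytokines. Of 39425 probes 48.2% were above background in both channels, so faint genes have only bounds or no value.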
